A study of Phaseolus vulgaris
Paraburkholderia phymatum STM815 with 4 samples.

Results

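The bean transcripts described here are the 94 of 32574 annotated *P. vulgaris* features whose reads stood far higher in nodules occupied by the *nifA* mutant of *P. phymatum* than in wild-type nodules. Each had at least 50 uniquely mapped reads in both *nifA* libraries, and its smaller normalized value in *nifA* nodules was at least 4 times its larger normalized value in wild-type nodules. Normalized means divided by the median-of-ratios size factor of the library, taken over 11485 features with reads in all 4 libraries. The members were thus chosen by their read counts in these same 4 libraries, and the differences between the nodules below describe the set without testing it. Another 3 features of chromosome 11 met both limits and were left out by the rule.

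Nodules are root organs in which the plant houses rhizobia and feeds them with carbon compounds, and in return receives ammonium fixed from atmospheric nitrogen. The bacterial regulator NifA switches on the genes of nitrogenase, the enzyme that fixes nitrogen, so nodules of a *nifA* mutant give the plant no fixed nitrogen. The host expresses many genes mainly in nodules, among them leghemoglobins, which carry oxygen, and nodulins, some of which are cell wall proteins.

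Plants of *P. vulgaris* cv. Negro Jamapa grew on a nitrogen-free medium and were inoculated with *P. phymatum* STM815, either the wild-type (wt) or an insertional *nifA* mutant. The nodules were harvested 21 days post infection, with 2 independent biological replicates per strain, and plant and bacterial RNA was sequenced together. Wild-type library names hold another year than *nifA* library names, so the year and the strain cannot be told apart. Whole nodules were sampled, in which more cells of a type and more RNA per cell cannot be told apart either. The mutant is 1 insertional strain, and no complemented strain was sequenced here.

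The libraries held 8526065 to 14169013 unique reads on bean features. *P. phymatum* held 38.0% and 32.0% of the unique reads of both organisms in wt replicates 1 and 2, against 7.97% and 12.01% in the *nifA* libraries. The disrupted bacterial gene itself gave 4036 and 3301 reads in wt nodules against 2562 and 2491 in *nifA* nodules. As a share of the bacterial reads this was 0.0771% and 0.0501% in wt nodules against 0.209% and 0.171% in *nifA* nodules, so the share was higher where the reads were fewer. As the mutation is an insertion, these reads give no check of the strain labels. Fewer bean features had any read in *nifA* replicate 1 (12153) than in the 3 other libraries (17093 to 18695). Yet *nifA* replicate 1 held the most unique bean reads (14169013). The 10 most-read bean features, of which 1 belongs to the set, took 14.3% and 39.2% of the bean reads in wt replicates 1 and 2, against 68.3% and 52.8% in the *nifA* libraries. The libraries therefore differed in composition, and the size factors, 1.15 and 1.42 for wild-type and 0.723 and 0.916 for *nifA*, did not follow the totals. With total bean reads as the scale, the median log2 difference between *nifA* and wild-type of all 15507 tested features moved from −0.34 to −1.14, and 29 features met the rule, all of them in the set. All 94 transcripts kept both *nifA* values above both wild-type values on that scale, with a lowest ratio of 1.60 and a median ratio of 3.34. A change of scale multiplies all values of a library by the same factor, and the rule had set ratios of at least 4. With the factors used here this order was built in and supports nothing.

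Across the 94 transcripts the median normalized read count was 25.3 and 37.8 in wt replicates 1 and 2 against 319 and 289 in the *nifA* libraries. Together they took 0.188% and 0.574% of the bean reads in wt replicates 1 and 2 against 4.61% and 3.71% in the *nifA* libraries. Most of these reads came from 4 transcripts, which held 62.8% and 85.4% of the reads of the set in wt nodules against 92.5% and 83.6% in *nifA* nodules. Without these 4 the share was 0.0697% and 0.0840% in wild-type nodules and 0.345% and 0.608% in *nifA* nodules. By reads, the set is thus made of a few very abundant transcripts and many with far fewer reads than these. The mean of the *nifA* libraries was under 200 normalized reads for 34 transcripts, from 200 to 500 for 29, from 500 to 2000 for 21, from 2000 to 10000 for 6 and higher for 4. In wild-type nodules 20 transcripts had under 10 reads in replicate 1 and 5 in replicate 2. No read was found for 7 of them in wild-type replicate 1 and for 1 in wild-type replicate 2.

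**Figure D1:**
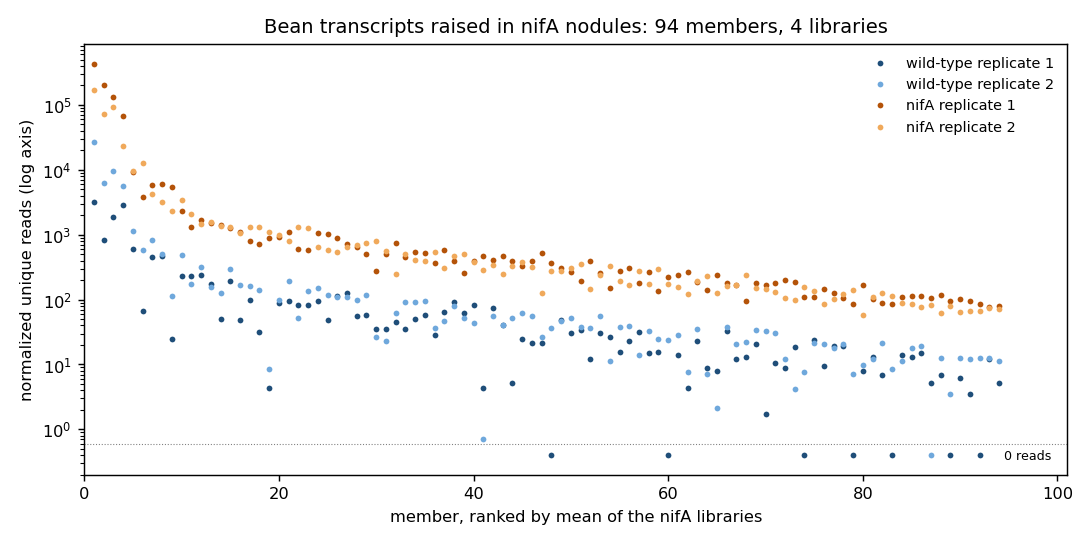
Normalized unique reads (log axis) of the 94 transcripts in each of the 4 libraries, ranked along the horizontal axis by the mean of the *nifA* libraries, with counts of 0 drawn at the foot. The 4 highest transcripts stand above 10000 normalized reads in both *nifA* libraries, and the *nifA* points lie above the wild-type points throughout, as the rule requires.

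The most abundant transcript, CDS:ESW33034, is a feature of 216 bp on chromosome 1 (3646954 to 3647169, forward strand). It had 3696 and 37992 reads in wt replicates 1 and 2 against 313269 and 157577 in *nifA* replicates 1 and 2. The wild-type libraries differed from each other by 8.32 times after scaling, more than the 6.42 times between the smaller *nifA* and the larger wild-type value. Its mean normalized level was 15022 ± 16687 (SD, n = 2) in wt nodules against 302580 ± 184568 (SD, n = 2) in *nifA* nodules. Its log2 fold change in edgeR was 4.31 with a standard error of 1.34, and the Benjamini-Hochberg adjusted p was 0.205. The ratio was large, but so was the spread within each pair of libraries.

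PHAVU_010G039000g (chromosome 10, 5711128 to 5714114, reverse strand) came next, with 949 and 9004 reads in wt nodules against 145573 and 66992 in *nifA* nodules. The replicates again stood far apart, by 7.68 times between the wild-type libraries, and the ratio of the smaller *nifA* to the larger wild-type value was 11.5. Its log2 fold change was 5.23 with a standard error of 1.28 (edgeR adjusted p = 0.126). A feature of 114 bp on chromosome 8 (24480768 to 24480881) had 2111 and 13627 reads in wt nodules against 96777 and 84120 in *nifA* nodules. The *nifA* libraries lay close together here, while the wild-type libraries did not. On chromosome 2 (5490249 to 5490901) another abundant feature had 3296 and 8039 reads in wt nodules against 49203 and 21383 in *nifA* nodules, with a ratio of 4.11.

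In these 4 transcripts wild-type replicate 2 stood between the low level of wild-type replicate 1 and the high level of the *nifA* libraries. All of the 10 bean features with the most reads over the 4 libraries together were likewise higher in wild-type replicate 2 than in replicate 1, by 1.23 to 9.01 times, and 8 of them were higher in both *nifA* libraries than in both wild-type libraries. The bean feature with the most reads over the 4 libraries together, PHAVU_011G120500g (chromosome 11, 21156808 to 21157281), does not belong to the set. It had 442224 and 2732030 reads in wt nodules against 2649026 and 2034619 in *nifA* nodules, and its smaller *nifA* value was 1.15 times its larger wild-type value. Over the whole set, wild-type replicate 2 was above replicate 1 in 69 transcripts (73.4%), against 49.9% of the other features with at least 50 reads in both *nifA* libraries. The part of this difference between the wild-type libraries in the choice of the set was not tested.

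**Figure D2:**
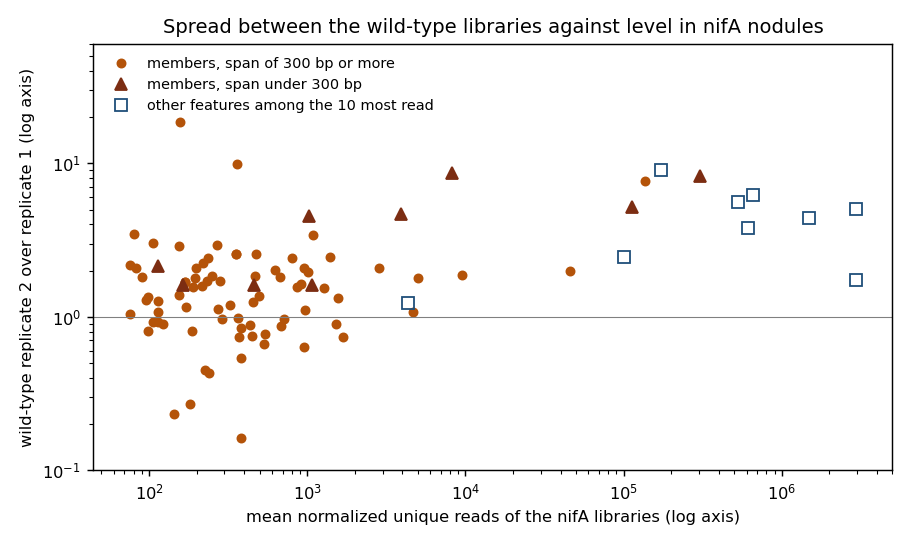
Normalized reads of wild-type replicate 2 over those of replicate 1 (log axis) against the mean normalized reads of the *nifA* libraries (log axis), for the 86 transcripts of the set with reads in both wild-type libraries and for the other features among the 10 most read. Ratios of 5 and more are found among the most abundant features in and outside the set. The highest ratio, 18.6, belongs to a scarcer transcript, while most of the scarcer transcripts lie between 0.5 and 4.

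In the set the *nifA* libraries resembled each other more closely than the wild-type libraries did. They lay within 1.5 times of each other in 54 transcripts and within 2 times in 78, with a median of 1.42 times, against 1.41 times in the other features with enough reads. The widest gap, of 4.22 times, left both *nifA* values above wild-type by the rule. *nifA* replicate 1 was the higher library in 58 transcripts (61.7%), against 51.1% of the other features. The wild-type libraries were over 2 times apart in 40 transcripts. In 13 of them replicate 2 was at least 5 times replicate 1, or replicate 1 had no read, and in 2 transcripts replicate 1 was at least 5 times replicate 2. The rule holds the wild-type values below the *nifA* values, and counting error is larger at low counts. The strains are thus not compared on equal terms here.

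The ratio of the smaller *nifA* value to the larger wild-type value ranged from 4.003 to 107, with a median of 5.31. It was under 5 in 34 transcripts, at least 8 in 21, at least 10 in 14 and at least 16 in 6. The set is the upper end of a distribution with no gap at the limit. Of the 7192 features with at least 50 reads in both *nifA* libraries, 435 had a ratio of at least 2, and the median ratio was 0.759. The set makes up 1.31% of these features. By the mirrored rule, with the roles of the nodules exchanged, 676 of 9777 features (6.91%) were lower in *nifA* nodules. Just outside the limit were a feature on chromosome 3 (42583850 to 42590430) at 3.92, PHAVU_011G193800g at 3.94 and a feature on chromosome 2 (9771801 to 9777029) at 3.97. Just inside were a feature on chromosome 8 (12722990 to 12725375) at 4.003, one on chromosome 6 (26513672 to 26516585) at 4.07 and PHAVU_011G194700g at 4.10.

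**Figure D3:**
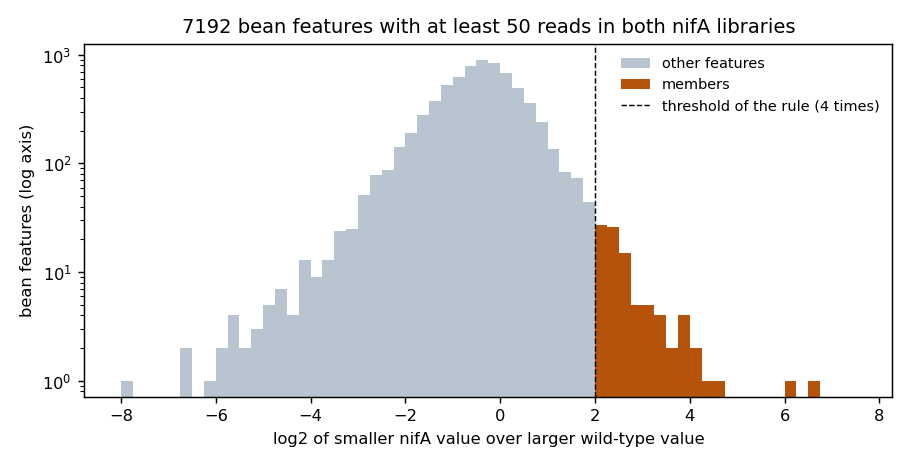
Number of bean features (log axis) by the log2 of the smaller normalized *nifA* value over the larger normalized wild-type value, for the 7192 features with at least 50 reads in both *nifA* libraries. The 94 transcripts of the set (dark bars) lie to the right of the dashed line at 4 times, and 2 of them stand apart near the right end.

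The largest ratio, 107, was that of CDS:ESW17298 on chromosome 7 (46753954 to 46759902, forward strand). It had 5 and 12 reads in wt nodules against 653 and 1020 reads in *nifA* nodules. Its mean normalized level was 6.42 ± 2.91 (SD, n = 2) in wt nodules against 1008 ± 149 (SD, n = 2) in *nifA* nodules. The pairs were tight and far apart, and its log2 fold change of 7.24 (standard error 0.55, edgeR adjusted p = 0.0117) carried the lowest adjusted p of the set. The second largest ratio, 64.6, belonged to a feature on chromosome 1 (13290483 to 13292701) with 5 and 1 reads in wt nodules against 345 and 258 in *nifA* nodules. These transcripts were close to absent from wild-type nodules at this depth. A feature on chromosome 5 (32950425 to 32951186) had 0 and 5 reads in wt nodules against 68 and 74 in *nifA* nodules. The 7 transcripts without a read in wild-type replicate 1 had 5 to 51 reads in wild-type replicate 2 and 61 to 267 in the *nifA* libraries. Some high ratios thus rest on few reads, and these counts carry counting error on top of the spread between nodules.

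A short feature on chromosome 3 (48760289 to 48760537) combined a large ratio with a high level. It had 28 and 161 reads in wt nodules against 3971 and 2115 in *nifA* nodules, which gave a ratio of 20.3 and a log2 fold change of 5.78 (standard error 0.89, edgeR adjusted p = 0.0365). Higher still in reads was a feature on chromosome 6 (30260755 to 30261306) with 530 and 707 reads in wt nodules against 4436 and 2938 in *nifA* nodules. On chromosome 7 (42332269 to 42333507) a feature had 522 and 1161 reads in wt nodules against 4238 and 3871 in *nifA* nodules. In the latter 2 each wild-type library held over 500 reads, so their wild-type level rested on more reads than in most of the set.

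The edgeR fit over all bean features was made on the same reads as the rule and is given as a description. Of 15507 tested features 27 were called higher in *nifA* nodules at an adjusted p under 0.05 (0.174%), and 26 of them were transcripts of the set. With the study's threshold, an unadjusted p of at most 0.02 and a log2 fold change no smaller than 1, 387 were higher (2.5%), of which 81 belonged to the set. Both *nifA* libraries stood above both wild-type libraries in 19.2% of the tested features and, by the rule, in all 94. The median log2 fold change was 3.16 in the set, with a range of 2.27 to 7.24, and −0.17 over all tested features. The standard error of a transcript had a median of 0.70, and the adjusted p ran from 0.0117 to 0.402 with a median of 0.0874. The feature called higher that is not in the set lies on chromosome 3 (50748567 to 50755218). It had 209 and 241 reads in wt nodules against 596 and 642 in *nifA* nodules, a ratio of 3.85. None of the 4 most abundant transcripts was among the 26.

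The number of calls depended strongly on the fit. With all gene reads in place of unique reads 3 transcripts of the set were called, and with DESeq2 88. Without wild-type replicate 1 or 2 the calls in the set numbered 47 and 62, and without *nifA* replicate 1 or 2 they numbered 75 and 82. The rule itself was met by 140 features without wild-type replicate 1, 248 without wild-type replicate 2, 270 without *nifA* replicate 1 and 333 without *nifA* replicate 2. Leaving out a library removes a value that the rule has to meet, so a rise of these counts was built in. Of the 94 transcripts 92 were kept without wild-type replicate 1, and all 94 without any other library. At the same size factors, a transcript that meets the rule in all 4 libraries also meets it with 1 left out. Their retention was thus largely built in too.

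A property that the rule did not use was the position of the transcripts in the genome. They lay on all 11 chromosomes, from 3 on chromosome 9 (0.386% of the features there with at least 50 reads in both *nifA* libraries) to 16 on chromosome 7 (2.01%), and the highest share was on chromosome 5 (10 transcripts, 2.21%). The strands were nearly equal, with 45 forward and 49 reverse. Several transcripts were neighbours. Of the 69 features next to a transcript of the set that had at least 50 reads in both *nifA* libraries, 13 (18.8%) belonged to the set themselves. Over all features with at least 50 reads in both *nifA* libraries the share of the set was 1.31%. For the features lower in *nifA* nodules by the mirrored rule, 83 of 550 neighbours with at least 50 reads in both wild-type libraries (15.1%) met that rule too. The share over all features with that many wild-type reads was 6.91%. The 56 other neighbours had a median ratio of 0.999, against 0.752 over all features with enough reads outside the set, and 10 of them (17.9%) had a ratio of at least 2, against 4.80%.

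With up to 5 other features allowed between them, 21 transcripts fell into runs, 2 runs of 4, 3 of 3 and 2 of 2, and 73 stood alone. In each run all transcripts lay on the same strand. No table used here gives the features of these runs a name or a function, and whether they are copies of one another was not examined, since no sequence was used.

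The run with the largest differences begins with CDS:ESW17298 and covers 32.7 kb of chromosome 7 (46753954 to 46786690, forward strand). It consists of 4 adjacent features. The second had 701 and 1626 reads in wt nodules against 6695 and 8883 in *nifA* nodules. The third had 10 and 17 reads in wt nodules against 147 and 97 in *nifA* nodules, and the last had 40 and 38 against 197 and 736. Neighbours that differed widely in level thus stood at least 7.81 times higher in *nifA* nodules by the ratio of the rule. Between 86.3% and 100% of their reads were unique.

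A run of 4 adjacent features covers 36.0 kb of chromosome 2 (2685020 to 2721020, forward strand). The first had 267 and 683 reads in wt nodules against 1669 and 3098 in *nifA* nodules, and the second 0 and 12 against 61 and 105. The third had 73 and 67 reads in wt nodules against 425 and 282 in *nifA* nodules, and the last 8 and 18 against 86 and 57. The ratios were closer to each other than on chromosome 7, from 4.79 to 9.95.

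The other run on chromosome 7, of 3 adjacent features, spans 19.1 kb (1792525 to 1811609, reverse strand). Reads were 37 and 53 in wild-type against 129 and 149 in *nifA* nodules for the first, and 95 and 191 against 416 and 1143 for the second. The third had 198 and 219 reads in wt nodules against 1080 and 1424 in *nifA* nodules, and was called in edgeR with a log2 fold change of 3.21 (standard error 0.37, adjusted p = 0.0180). The wild-type replicates of the second were 1.63 times apart after scaling, wider than those of its neighbours in the run.

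On chromosome 1 a run of 3 covers 161 kb (39715804 to 39877290, reverse strand) with 2 other features between. Its first feature had 102 and 140 reads in wt nodules against 678 and 918 in *nifA* nodules, and its others had 25 and 79 against 285 and 288, and 18 and 35 against 99 and 271. The features in between did not meet the rule, with ratios of 0.597 and 1.63, and one of them reached 49243 reads in a *nifA* library. This run therefore holds a far more abundant feature that was not raised to the same extent. On chromosome 5 a run of 3 covers 66.1 kb (38775101 to 38841164, reverse strand) with 4 features between, none of which had 50 reads in both *nifA* libraries. Its features had 22 and 25 reads in wild-type against 92 and 93 in *nifA* nodules, 0 and 51 against 267 and 252, and 15 and 17 against 75 and 99.

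**Figure D4:**
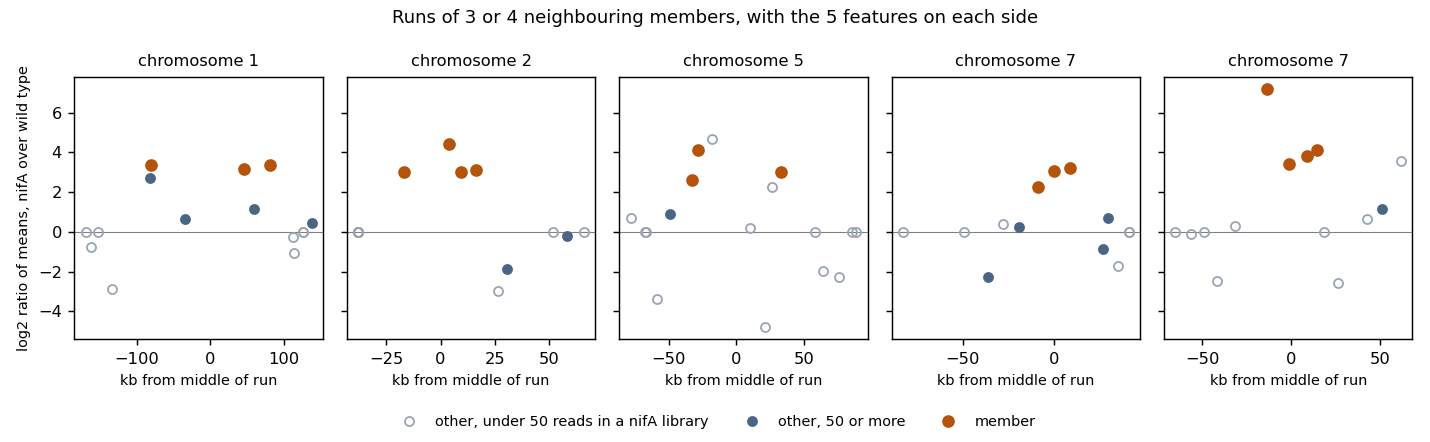
The log2 ratio of the mean normalized reads in *nifA* nodules to those in wild-type nodules, each plus 0.5, against the distance in kb from the middle of the run, for the 5 runs of 3 or 4 transcripts and the 5 features on each side. Filled orange points are transcripts of the set, filled blue points other features with at least 50 reads in both *nifA* libraries and open points features under that number, including those without any read at 0. Most flanking points lie near or below 0.

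The runs of 2 lie on chromosome 4 (42122547 to 42155782) and chromosome 6 (20296013 to 20321168). On chromosome 6 the features had 5 and 11 reads in wild-type against 192 and 113 in *nifA* nodules, and 40 and 33 against 367 and 512. Between them lay 2 features, of which 1 had enough reads and a ratio of 2.94. On chromosome 4 the features had 56 and 167 reads in wild-type against 742 and 526, and 41 and 129 against 324 and 462, with a feature of ratio 3.62 between them. Together with 2 more distant transcripts the set had 4 members within 230 kb there (41925671 to 42155782), among 29 annotated features.

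The transcripts of the set were annotated over shorter stretches than others. The span of a feature, from its first to its last base with introns included, had a median of 2000 bp in the set and 3634 bp over the 7192 features with enough reads. It ranged from 114 to 15800 bp. Spans under 300 bp were found for 10 transcripts of the set (10.6%) and for 85 of the features with enough reads (1.18%). All 10 were higher in wild-type replicate 2 than in replicate 1 or had no read in the latter, and the 9 with reads in both had a median of 4.52 times. The longer transcripts of the set with a read in wild-type replicate 1 had a median of 1.45 times. Among the 75 short features outside the set, replicate 2 was above replicate 1 in 64%, so a lean to replicate 2 was found in short features outside the set as well. These 75 features had a median ratio of 0.857, and 34 of them were higher in both *nifA* libraries than in both wild-type libraries. Without short features 84 transcripts remained of 7107, or 1.18%.

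Levels of different genes were compared as normalized reads per kb of span, averaged over the *nifA* libraries. The median was 147 in the set and 81.3 over the features with enough reads, and 66 transcripts of the set lay above the latter. By the same measure 10 transcripts were among the 100 highest of the 7192 features, the first being CDS:ESW33034 at rank 7. Transcripts of the set were therefore found at high as well as low levels in *nifA* nodules. The rule used these same *nifA* values, and the shorter spans of the set raise its reads per kb. The higher median is thus a description and no separate result.

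Reads that map to several places were left out of these counts. At least 90% of all gene reads were unique for 75 transcripts of the set (79.8%) and for 93.7% of the features with enough reads. For 4 transcripts under 50% were unique, with a lowest value of 8.91%, and their values are uncertain. These same 4, and no other transcript of the set, overlapped an annotated feature on the same strand, and where their other reads map was not examined. No transcript of the set overlapped a feature on the other strand.

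A locus tag could be given to 11 of the 94 transcripts, all on chromosomes 10 and 11. The pairs of transcripts and loci at hand covered only chromosome 11 and a part of chromosome 10, while the study names bean loci of other chromosomes as well. The 11 transcripts make up 1.65% of the 668 paired features with enough reads. All 11 are listed as hypothetical proteins, so the set is described by position and level and not by function. Among them PHAVU_011G035900g (chromosome 11, 3143691 to 3144233) had 9 and 3 reads in wt nodules against 172 and 115 in *nifA* nodules, a ratio of 16.004. PHAVU_011G099300g (chromosome 11, 10596863 to 10598095) had 10 reads in each wild-type library and 103 and 211 in *nifA* nodules. It was the only 1 of the 11 called in edgeR, with a log2 fold change of 4.55 (standard error 0.76, adjusted p = 0.0479). Both were scarce in wild-type nodules.

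Short and more abundant among the paired transcripts were PHAVU_010G068400g and PHAVU_010G003500g. PHAVU_010G068400g (chromosome 10, 17227791 to 17227940) had 77 and 820 reads in wt nodules against 2748 and 11637 in *nifA* nodules, and 59.2% of its reads were unique. Its replicates differed more than those of most transcripts, by 8.62 times in wild-type. PHAVU_010G003500g (chromosome 10, 678982 to 679188) had 36 and 201 reads in wt nodules against 525 and 1224 in *nifA* nodules.

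The 6 others had ratios of 4.10 to 5.13. PHAVU_011G194700g (chromosome 11, 47084720 to 47090521) was the most abundant of them, with 108 and 277 reads in wt nodules against 809 and 735 in *nifA* nodules. PHAVU_010G023700g had 39 and 54 reads in wt nodules against 141 and 323 in *nifA* nodules, and PHAVU_011G044700g 18 and 54 against 201 and 177. PHAVU_011G124400g had 11 and 29 against 104 and 78, and PHAVU_011G191400g 22 and 29 against 76 and 113. In each the *nifA* pair lay above the wild-type pair, as the rule requires, with log2 fold changes whose adjusted p was over 0.05.

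PHAVU_011G156200g (chromosome 11, 41221588 to 41224573) is the only paired transcript of the set that the study listed under a gene ontology term, recognition of pollen, the term that receptor-like kinases with an S-locus domain usually carry. It had 35 and 74 reads in wt nodules against 191 and 276 in *nifA* nodules (edgeR adjusted p = 0.0731, with a log2 fold change of 2.76 and a standard error of 0.55). Of the 6 loci of this term 3 could be paired with a feature. PHAVU_011G149500g (chromosome 11, 39170643 to 39174001) had 130 and 139 reads in wt nodules against 250 and 316 in *nifA* nodules, a ratio of 3.04 and below the limit of the set. PHAVU_011G152700g (chromosome 11, 39998050 to 40001527) had 0 and 1 reads in wt nodules against 19 and 42 in *nifA* nodules, too few for the rule. The *nifA* libraries were higher in all 3, with adjusted p of 0.130 and 0.230 for the latter 2 in edgeR. The study chose the term on these same samples, so the direction is no independent evidence.

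Of the 1998 paired transcripts 128 carry a description other than hypothetical protein, of which 111 were tested and 56 had enough reads for the rule. None belonged to the set. In edgeR 0 were called in either direction at an adjusted p under 0.05, against 0.174% higher and 1.38% lower of all tested features. At an unadjusted p under 0.05, 2 were higher and 10 lower, against 4.6% and 10.8% of all tested features. DESeq2 called 1 higher and 6 lower, against 2.06% and 5.97%. With so few described transcripts these counts say little of any function. The highest ratio among them was 3.25, that of calreticulin-3 (PHAVU_011G053000g), a chaperone of the endoplasmic reticulum. Of the gene lists sought in these descriptions, receptor and other protein kinases held 5 transcripts, 4 of them tested, and transcription factors held 4, all tested. At these numbers a count of 0 calls is what the shares above would give. Of the kinases 2 were lower at an unadjusted p under 0.05 and DESeq2 called 1 lower, and none was called by edgeR at an adjusted p under 0.05. No transcription factor was called by either tool or passed the unadjusted limit. The list of defence proteins held 1 tested transcript, found by the word glucanase in its description, endoglucanase, which also names cell wall enzymes. It was lower at an unadjusted p under 0.05 and in DESeq2. Leghemoglobins, nodulins, peptidases and transporters are not among the described transcripts, so neither the nodule label nor these functions were checked by name.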

How the data were processed

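RNA of *P. vulgaris* nodules was measured in 4 libraries, 2 per strain, grouped by the labels. After depletion of plant ribosomal RNA and trimming, the authors aligned the reads to the bean chromosomes in CLC Genomics Workbench and deposited counts of unique and of all gene reads per feature. Coordinates are those of the deposited files. Whether counting used strand is not given in the sources used here. The authors' TPM and RPKM columns and their own comparison tables (fold changes and p-values) were not used, except that a table pairs 1998 transcripts with loci. Python 3.11.15 was used for the rule and R 4.3.3 with edgeR 4.0.16 (TMM factors, filterByExpr, glmQLFit, glmQLFTest) and limma 3.58.1 for the fit, with DESeq2 1.42.0 as an alternative. The older DESeq package, named in the submitters' processing notes, was not run. The standard error is the absolute log2 fold change over the square root of F. The scripts were tested on simulated data.

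Members and gene lists were chosen with earlier results of these data known. Named features are those with a locus tag or description and the highest level or ratio, those in the study's tables, those at the limit of the rule, and at most 2 identifiers without a name. Other features are given by position. Features given by position for their level, ratio or run were picked after their values were seen.

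Replicates differed by far more than counting error (chi-square per degree of freedom 140 in wild-type and 112 in *nifA*), and the biological coefficient of variation was 0.67. With 2 libraries per strain precision is low. Alternatives were other scalings, filters, folds, read minimums, all gene reads, DESeq2, the study's threshold, a replicate block and leaving out each library.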

Additional observations from a re-analysis of the deposited data

How the results depend on the processing

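The set of 94 became 29 features with total bean reads as factors, 432 at a fold of 2 and 21 at a fold of 8. It was 140 to 333 when a library was left out, which leaves the rule fewer values to meet. With TMM factors it was 98, of which 93 were shared, and with all gene reads 121, of which 85 were shared. The features called higher in edgeR, 27 at first, numbered 340 without a filter, 160 with at least 10 reads in every library, 4 with all gene reads, 321 in DESeq2, 387 at the study's threshold and 86 to 458 with a library left out. The called members, 26 at first, numbered 78, 68, 3, 88 and 81 under the same settings, and 47 to 82 with a library left out. The cause was not tested. Leaving out a library leaves 1 in an arm, which is then assumed to vary like the other strain. The median log2 fold change of the set lay between 2.84 and 3.72, the highest without wild-type replicate 2. The rule used the same contrast, so a high median was built in.

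With the replicate number as a block, 118 features and 55 members were called. Over all tested features the deviations of libraries with the same number correlated at 0.059 only, and the main fit used no block. A pairing that touches only some of the features was not tested.

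Depth limits the scarce transcripts, and a feature poorly covered in *nifA* replicate 1 could not enter the set. Intervals and SD rest on 2 libraries.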
